A study of Mus musculus with 4 samples.

Results

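The 10 genes described here, Aldh2, Aldh1b1, Aldh1l1, Aldh3a1, Aldh3a2, Aldh4a1, Aldh5a1, Aldh6a1, Aldh7a1 and Aldh9a1, encode aldehyde dehydrogenases that lie outside the subfamily making retinoic acid. They were chosen by name, as possible side targets of an inhibitor of that subfamily, and all probe sets that the array annotation ties to one of these symbols and to no other gene were taken. This gave 18 of the 45101 probe sets on the array and 10 of the 18193 genes that the annotation names, each of the 10 with at least 1 probe set. The samples were testes of 129 strain mice, removed at 2 days post partum (2 dpp) and kept for 24 h in organ culture on agar in serum-containing medium. One group of 2 arrays came from testes cultured with WIN 18,446 at 1 µM, and the other group of 2 arrays from testes cultured with the vehicle, dimethyl sulfoxide (DMSO). Both groups shared strain, age, medium and culture time, and total RNA was amplified before hybridisation to Affymetrix Mouse430_2 arrays. Whether the 2 samples of a group are different animals or different cultures is not in the labels. The p-values therefore measure only how far these samples lie apart, possibly for technical reasons, and precision is limited by having 4 arrays.

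Aldehyde dehydrogenases oxidise aldehydes to the corresponding acids with NAD+ or NADP+ as electron acceptor. The retinaldehyde dehydrogenases Aldh1a1, Aldh1a2 and Aldh1a3 carry out the last step of retinoic acid synthesis, and WIN 18,446, a bis(dichloroacetyl)diamine, is a known inhibitor of them. The other members of the superfamily work in ethanol breakdown, in folate metabolism, in the breakdown of proline, valine, lysine and GABA, and in the clearance of fatty aldehydes. WIN 18,446 is also known to inhibit ALDH2, the mitochondrial enzyme that clears acetaldehyde, and people taking it reacted badly to alcohol. The arrays measure transcript levels and say nothing on enzyme activity.

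Levels are log2 values as the authors normalized them, so that a difference of 1 is a 2-fold change, and differences are WIN 18,446 minus vehicle. In a whole tissue, fewer cells of a type and less RNA per cell cannot be told apart. The array medians were 3.83 and 3.72 with WIN 18,446 and 3.72 and 3.76 with vehicle, and Pearson's r, taken across the 20895 tested probe sets (features of the same arrays, not replicates), was 0.985 between the WIN 18,446 arrays, 0.992 between the vehicle arrays and 0.964 to 0.976 between groups. The probe set for the 5' end of 18S ribosomal RNA read 6.55 on WIN 18,446 array 1, against 8.67 on WIN 18,446 array 2 and 8.12 and 8.17 on the vehicle arrays. The testis label was borne out by its markers: the Sertoli cell markers Sox9, Amh and Cldn11, the germ cell markers Ddx4 and Dazl, and the Leydig cell markers Cyp11a1 and Hsd3b1 were all far above background, while of 4 genes made by liver Alb, Ttr and Fgb stayed at background and Apoa1 read 2.34 to 2.36. Marker levels also differed between the groups. The mean level over 8 Sertoli cell markers was 12.07 and 11.85 on the WIN 18,446 arrays, against 12.42 and 12.45 on the vehicle arrays, with 5 of the 8 called lower and Amh, at 11.12 and 10.60 with WIN 18,446 against 9.37 and 9.85 with vehicle, not called. The mean over 5 endothelial markers was 5.04 and 4.88 on the WIN 18,446 arrays, against 5.86 and 6.34 on the vehicle arrays, with 1 of the 2 tested called lower. No Sertoli cell or endothelial marker lay at background on all 4 arrays. The endothelial mean includes Pecam1, Tie1 and Kdr, which were not tested. Kdr lay near background, at 2.09 and 2.13 with WIN 18,446 and 2.12 and 2.93 with vehicle. Tie1 lay near background only with WIN 18,446, at 2.43 and 2.32, against 5.16 and 4.97 with vehicle. The 8 germ cell markers averaged 8.97 and 8.93 with WIN 18,446 and 8.94 and 8.95 with vehicle, with 1 of 6 tested, Sall4, called lower. Among them Dppa3 lay at background on every array. Tdrd1 lay close to it, at 2.19 and 2.20 with WIN 18,446 and 2.30 and 2.25 with vehicle. The 6 markers of peritubular myoid and stromal cells averaged 11.63 and 11.6 with WIN 18,446 and 12.03 and 12.16 with vehicle, with 1, Des, called lower, and the 4 Leydig cell markers averaged 11.74 and 11.46 with WIN 18,446 and 12.15 and 11.77 with vehicle, with 0 called. None of these lay at background. The part of these shifts in the differences below was not tested.

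Promoters are shown for the 2 members with the smallest p-values, Aldh3a2 and Aldh1l1, and for Aldh9a1, which has the difference nearest to 0, so that the members furthest from 0 stand beside the one nearest to it. The sequences are RefSeq's for build GRCm38.p6 and run 5′ to 3′ in the direction of transcription, from 250 bases before to 50 bases after the start site. The windows lie at chr11:61267137-61267436 on the minus strand for Aldh3a2, at chr6:90550543-90550842 on the plus strand for Aldh1l1, and at chr1:167349741-167350040 on the plus strand for Aldh9a1. Capitals mark matches on either strand to the half-site of retinoid receptors, AGGTCA, to the GC box, which was searched as GGGCGG, to the CCAAT box, and to the core of the antioxidant response element, TGACNNNGC.
Aldh3a2: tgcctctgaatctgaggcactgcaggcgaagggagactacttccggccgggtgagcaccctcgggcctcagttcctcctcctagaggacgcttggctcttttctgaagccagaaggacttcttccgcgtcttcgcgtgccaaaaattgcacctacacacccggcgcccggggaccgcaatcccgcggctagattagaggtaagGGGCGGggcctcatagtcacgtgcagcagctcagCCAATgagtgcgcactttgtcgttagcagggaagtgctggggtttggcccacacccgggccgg
Aldh1l1: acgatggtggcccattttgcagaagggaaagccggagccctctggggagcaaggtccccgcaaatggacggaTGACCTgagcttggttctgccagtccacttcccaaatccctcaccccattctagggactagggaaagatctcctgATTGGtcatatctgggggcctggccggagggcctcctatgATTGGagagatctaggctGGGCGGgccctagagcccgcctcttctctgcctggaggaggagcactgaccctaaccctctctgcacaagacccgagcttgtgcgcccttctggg
Aldh9a1: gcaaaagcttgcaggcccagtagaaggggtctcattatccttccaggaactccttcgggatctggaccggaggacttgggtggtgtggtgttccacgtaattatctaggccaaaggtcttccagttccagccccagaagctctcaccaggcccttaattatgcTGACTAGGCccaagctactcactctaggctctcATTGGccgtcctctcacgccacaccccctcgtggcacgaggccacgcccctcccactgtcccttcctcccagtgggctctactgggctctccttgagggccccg
The Aldh3a2 window held 1 GC box and 1 CCAAT box, the Aldh1l1 window 1 AGGTCA on the minus strand 178 bases before the start site, 1 GC box and 2 CCAAT boxes, and the Aldh9a1 window 1 CCAAT box and 1 TGACNNNGC, with no overlap between matches. TATAAA, TGATGNAA (a core bound by ATF4 and CHOP) and the direct repeat of the retinoid half-site with a spacer of 5 bases were also searched on both strands, the repeat overlapping the half-site by construction, and none was in these 3 windows. Of all 32851 promoter windows in the table, 16.3% held AGGTCA, 35.7% GGGCGG, 37.4% CCAAT, 12.4% TGACNNNGC, 13.6% TATAAA, 3.97% TGATGNAA and 0.00913% the direct repeat. The GC content was 61.7% for Aldh3a2, 60% for Aldh1l1 and 59% for Aldh9a1. The table held windows for 7 of the 10 genes, Aldh1b1, Aldh4a1, Aldh5a1 and Aldh6a1 being the others. The matches are a description of letters and not of binding.

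No member was called higher or lower with WIN 18,446. Of the 18 probe sets, 13 passed the level filter, an average of 5 or more across all 4 arrays, and stood for 9 of the 10 genes. In limma, with Benjamini-Hochberg adjustment over all 20895 probe sets tested and a call at an adjusted p under 0.05, 0 of these 13 were called, against 5.18% of all probe sets tested (2.27% higher and 2.91% lower). An unadjusted p under 0.05 was found for 4 members, each lower with WIN 18,446, against 22% of all probe sets in either direction and 12.1% lower. Most differences were small and negative: 11 of 13 lay below 0, against 53.5% of all probe sets tested, and their median was -0.18, against -0.02 over all. WIN 18,446 and vehicle arrays were separate in 9 of the 13, each with WIN 18,446 lower, where 53.1% of all probe sets tested were separate in either direction and 29.3% were lower. With 1 probe set per gene, the one with the highest mean, 6 of 9 genes were separate and lower, against 31.8% of all 10970 genes, and 0 were called, against 6.4%. In all 8 of 9 genes lay below 0, against 54.8% of all genes, and the median was -0.20, against -0.02 over all genes. As folds, the member probe sets ran from 0.716 to 1.05 of the vehicle level. Without WIN 18,446 array 1, which stood apart in the 18S reading, the median over the 13 probe sets was -0.296, and without WIN 18,446 array 2 it was -0.114, with 0 called in either case.

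**Figure D1:**
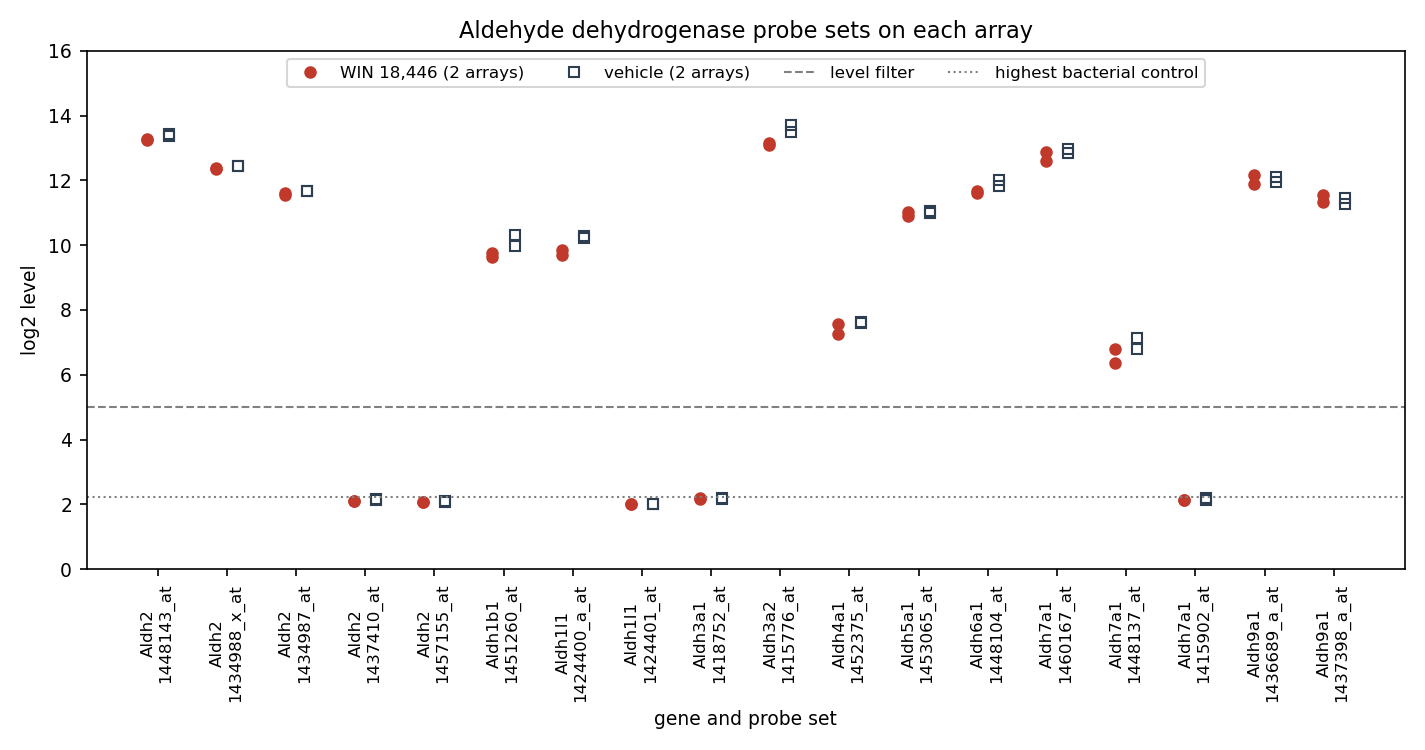
The plot gives the log2 level (vertical axis) of all 18 probe sets on each array, with filled circles for the 2 WIN 18,446 arrays and open squares for the 2 vehicle arrays. The 5 probe sets under the dotted line at 2.22, the highest bacterial control, lie at background, and the other 13 lie above the dashed filter line at 5, with the WIN 18,446 arrays below the vehicle arrays in 9 of them.

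Aldh3a2 encodes the fatty aldehyde dehydrogenase of the endoplasmic reticulum, which oxidises long-chain aldehydes, among them the one released from sphingosine 1-phosphate, and is mutated in Sjögren-Larsson syndrome in humans. Its probe set 1415776_at read 13.16 and 13.08 on the WIN 18,446 arrays, against 13.72 and 13.48 on the vehicle arrays. Both WIN 18,446 arrays lay below both vehicle arrays. The difference was -0.48 (SE 0.10, 95% confidence interval -0.73 to -0.23), or 0.716 of the vehicle level, and limma gave an adjusted p of 0.0605, just outside the threshold. This was the smallest p among the members. The side of the threshold rested on the settings. Over the 10 alternatives that kept all 4 arrays, the adjusted p ran between 0.0214 and 0.224, the highest being without the level filter. It was under 0.05 when probe sets under a mean of 7 were left out (0.0405) or 1 probe set per gene was tested (0.0273). The same held with values quantile normalized again (0.0437) or array medians set equal (0.0447). With the replicate number as a block it was 0.0214, though these numbers are not shown to pair the samples. The difference was -0.36 with vehicle array 1 left out, -0.60 with vehicle array 2 left out and -0.52 with WIN 18,446 array 1 left out. Over 10632 other genes, those whose values, centred on their mean over the 4 arrays, lay nearest to Aldh3a2 were Shtn1, Cdkl2 and Zmat5, at Euclidean distances of 0.0127, 0.0249 and 0.0447 log2 units, with differences of -0.49, -0.47 and -0.48, none of them called. With 4 points per gene this is a description of these arrays.

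Aldh3a1, which lies next to Aldh3a2 in RefSeq's gene table of GRCm38.p6 and encodes the abundant aldehyde dehydrogenase of the cornea, had 1 probe set, 1418752_at. It read 2.17 and 2.18 with WIN 18,446 and 2.20 and 2.18 with vehicle, at or below 2.22, the highest reading of the 27 bacterial control probe sets that have no target in mouse RNA. It was not above background on any array and was not tested.

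Aldh2, the mitochondrial enzyme for acetaldehyde, is the member for which inhibition by WIN 18,446 is best known. Its brightest probe set, 1448143_at, read 13.28 and 13.24 with WIN 18,446, against 13.36 and 13.42 with vehicle, and the 2 groups did not overlap. The difference was -0.14 (SE 0.06, 95% confidence interval -0.29 to 0.02, limma adjusted p = 0.281), so the interval held values between 0.818 and 1.01 of the vehicle level. None of the 3 intervals of Aldh2 reaches a 2-fold difference in either direction. The probe set 1434988_x_at read 12.35 and 12.37 with WIN 18,446, against 12.46 and 12.44 with vehicle. The probe set 1434987_at read 11.55 and 11.60 with WIN 18,446, against 11.66 and 11.68 with vehicle. Both pairs of groups were again separate, with differences of -0.09 each (adjusted p = 0.498 and 0.596), and the suffix _x_at marks probe sets whose probes may match other transcripts. The remaining 2 probe sets of Aldh2, 1437410_at and 1457155_at, lay between 2.08 and 2.16 on all arrays, at background.

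Aldh1b1, a mitochondrial relative of Aldh2 that also oxidises acetaldehyde, was measured by 1451260_at at 9.62 and 9.76 with WIN 18,446, against 10.31 and 9.97 with vehicle. Both WIN 18,446 arrays were lower than both vehicle arrays, although the vehicle arrays lay further apart than the WIN 18,446 arrays. The difference was -0.45 (SE 0.17, 95% confidence interval -0.87 to -0.03), with an unadjusted p of 0.0391 and a limma adjusted p of 0.201. Without vehicle array 1 it was -0.28.

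Aldh1l1 encodes the cytosolic 10-formyltetrahydrofolate dehydrogenase, which releases a one-carbon unit from folate as carbon dioxide. The probe set 1424400_a_at read 9.84 and 9.70 with WIN 18,446, against 10.28 and 10.22 with vehicle. The gap between the groups exceeded the spread within each of them. The difference was -0.48 (SE 0.13, 95% confidence interval -0.80 to -0.15, limma adjusted p = 0.109), or 0.718 of the vehicle level. The second probe set, 1424401_at, which the annotation ties to the same cDNA record, stayed at 2.00 to 2.01 on all arrays, so the 2 probe sets disagreed on whether the transcript was above background.

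Aldh6a1, the mitochondrial methylmalonate semialdehyde dehydrogenase of valine and thymine breakdown, read 11.67 and 11.62 with WIN 18,446, against 12.01 and 11.82 with vehicle (1448104_at). The WIN 18,446 arrays were both lower, by -0.27 on average (SE 0.10, 95% confidence interval -0.53 to -0.02, unadjusted p = 0.0396, limma adjusted p = 0.202), and by -0.18 without vehicle array 1. Aldh4a1, which completes proline breakdown by oxidising glutamate semialdehyde, read 7.55 and 7.27 with WIN 18,446, against 7.62 and 7.60 with vehicle (1452375_at). Its difference of -0.20 had a wide interval, -0.71 to 0.31 (adjusted p = 0.625), and the gap between the 2 WIN 18,446 arrays exceeded the difference between the group means. It was -0.34 without WIN 18,446 array 1 and -0.056 without WIN 18,446 array 2. Aldh5a1, the succinate semialdehyde dehydrogenase that ends GABA breakdown, read 10.91 and 11.03 with WIN 18,446 and 11.05 and 10.99 with vehicle (1453065_at). The groups overlapped, with a difference of -0.05 (95% confidence interval -0.31 to 0.21, adjusted p = 0.81) that turned to 0.0048 without WIN 18,446 array 1, and was -0.11 without WIN 18,446 array 2, -0.024 without vehicle array 1 and -0.082 without vehicle array 2.

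Aldh7a1, or antiquitin, oxidises aminoadipate semialdehyde in lysine breakdown and betaine aldehyde, and its human form is mutated in pyridoxine-dependent epilepsy. Its 3 probe sets read at very different levels although the annotation ties them to 1 cDNA record. The brightest, 1460167_at, read 12.88 and 12.59 with WIN 18,446 and 12.97 and 12.86 with vehicle, with an overlap of the groups and a difference of -0.18 (95% confidence interval -0.47 to 0.11, adjusted p = 0.439). The dimmer 1448137_at read 6.79 and 6.37 with WIN 18,446 and 6.80 and 7.12 with vehicle. Here the groups were separate by a narrow margin, and the difference of -0.38 had the widest interval among the members, -1.03 to 0.27 (adjusted p = 0.462). Both moved with single arrays left out: without WIN 18,446 array 1 the difference was -0.32 for 1460167_at and -0.59 for 1448137_at, and without WIN 18,446 array 2 it was -0.036 and -0.17. With vehicle array 2 left out 1448137_at stood at -0.22. The third, 1415902_at, lay between 2.14 and 2.21, at background.

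Aldh9a1, which oxidises trimethylaminobutyraldehyde in carnitine synthesis and aminobutyraldehyde from polyamines, was the member with differences above 0. Its probe set 1436689_a_at read 12.17 and 11.90 with WIN 18,446 and 12.12 and 11.94 with vehicle, a difference of 0.0080 (95% confidence interval -0.31 to 0.33, adjusted p = 0.982). The other, 1437398_a_at, read 11.54 and 11.33 with WIN 18,446 and 11.28 and 11.44 with vehicle, a difference of 0.07 (95% confidence interval -0.23 to 0.38, adjusted p = 0.77). The groups overlapped in both, and neither sign was stable. The first was -0.03 with array medians set equal, -0.13 without WIN 18,446 array 1 and -0.08 without vehicle array 2, and the second was -0.032 without WIN 18,446 array 1 and -0.0087 without vehicle array 1. Without WIN 18,446 array 2 they were 0.14 and 0.18, the first was 0.097 without vehicle array 1, and the second was 0.16 without vehicle array 2.

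**Figure D2:**
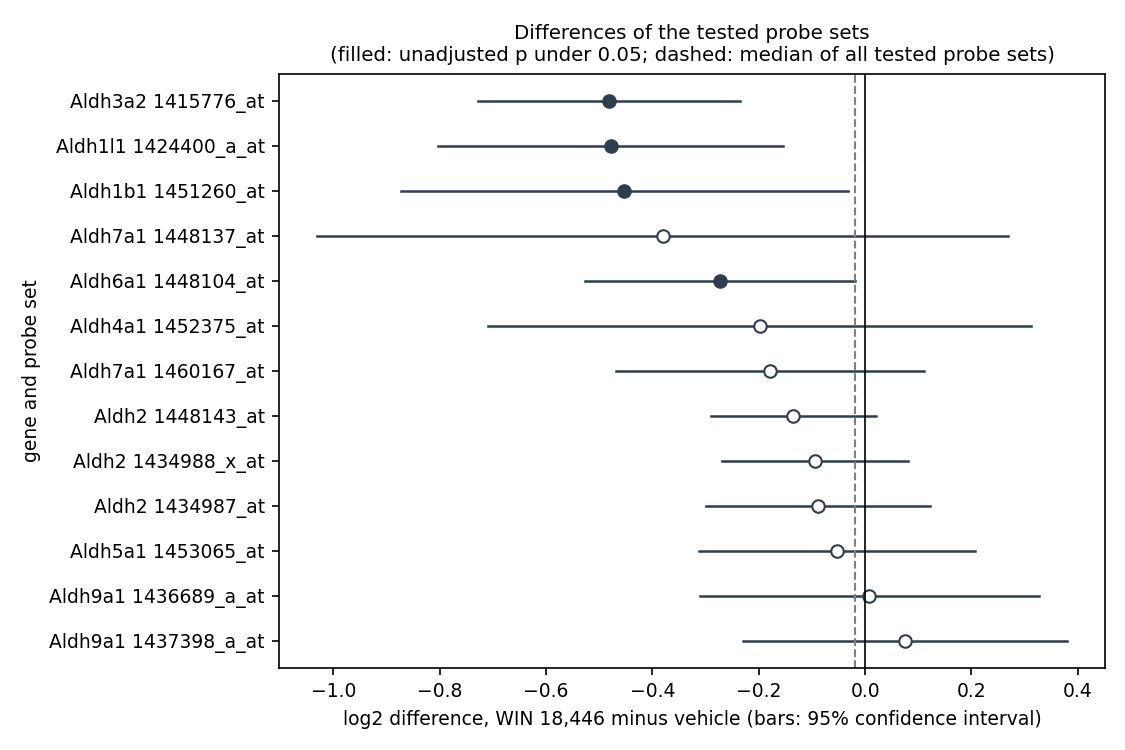
The plot shows the log2 difference, WIN 18,446 minus vehicle, of the 13 tested probe sets with its 95% confidence interval from limma; filled circles have an unadjusted p under 0.05 and the dashed line is the median of all tested probe sets, -0.02. Aldh3a2, Aldh1l1, Aldh1b1 and Aldh6a1 have intervals below 0, and both Aldh9a1 probe sets lie at or above 0.

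Other family members were called on the same arrays, 1 of 3 tested in the retinoid subfamily with its relative Aldh1a7 and 2 of 4 tested among the remaining genes, all higher. Over all genes tested, 2.94% were called higher. Aldh1a7 rose, at 10.82 and 10.91 with WIN 18,446 against 9.93 and 9.78 with vehicle (difference 1.01, limma adjusted p = 0.0224), while Aldh1a1 differed by 0.34 (adjusted p = 0.0711) and Aldh1a2 by -1.06 (adjusted p = 0.0724), and Aldh1a3 was not tested. Outside both groups, Aldh1l2, the mitochondrial counterpart of Aldh1l1, rose to 7.27 and 7.72 with WIN 18,446, against 5.56 and 5.32 with vehicle. Both WIN 18,446 arrays were above both vehicle arrays, by 2.06 (SE 0.26, adjusted p = 0.0238), or 4.16-fold. Aldh18a1, the enzyme that makes glutamate semialdehyde for proline synthesis, where Aldh4a1 oxidises it, had 5 tested probe sets with differences between 0.40 and 0.67, of which 3 were called higher. Its brightest, 1437325_x_at, rose to 12.91 and 12.92 with WIN 18,446, against 12.28 and 12.20 with vehicle (adjusted p = 0.0168). Aldh16a1 and Aldh3b1 were not called (-0.02 and 0.05 at their brightest probe sets), and Aldh3b2 and Aldh8a1 were not tested. The dimmer probe set of Aldh16a1, 1423731_at, read 7.83 and 7.85 with WIN 18,446, against 8.47 and 8.10 with vehicle. There the groups were separate, with a difference of -0.45 that was not called (limma adjusted p = 0.282). Whether these differences differ from those of the members was not tested.

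Genes acting beside the members in their pathways were counted from lists, taking for each gene the tested probe set with the highest mean. Over all 10970 genes 2.94% were called higher and 3.46% lower, and the median difference was -0.02. Over all these lists and the other family members 10 genes were called, 5 of them on the folate one-carbon list. Leaving out any array leaves 1 array in its group, so from such fits only the differences of single genes are given. In each of the 10 genes the 2 groups did not overlap, so leaving out any 1 array could not turn the direction. Without vehicle array 1 and without vehicle array 2, the difference was 1.05 and 1.09 for Shmt2, -0.94 and -0.95 for Sphk2, 1.09 and 0.93 for Aldh1a7, and 0.71 and 0.64 for Aldh18a1. In the folate one-carbon list around Aldh1l1, 5 of 10 tested genes rose, 0 fell and 5 were not called, with a median difference of 0.54. Shmt2, the mitochondrial serine hydroxymethyltransferase, rose to 11.97 and 11.94 with WIN 18,446, against 10.86 and 10.91 with vehicle (difference 1.07, adjusted p = 0.0115), and its cytosolic form Shmt1 rose by 0.64 (adjusted p = 0.0354). Mthfd2 and Mthfd1l, which handle formyl groups in mitochondria, rose by 0.65 and 1.06 (adjusted p = 0.0242 and 0.0434), and Aldh1l2 was the fifth. Aldh1l1 itself, at -0.48, had the opposite sign, though it was not called. So did 2 of the 10 tested genes of the list at their brightest probe sets, Mtfmt (-0.61) and Gart (-0.14), neither of them called. At its other probe set, 1457005_at, Mtfmt differed by 0.36. The other tested probe sets of Gart differed by -0.26, -0.25 and 0.35. None of these was called.

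In the GABA and glutamate list around Aldh5a1, Abat, the transaminase that makes succinate semialdehyde from GABA, fell, and 5 of 6 tested genes were not called (median -0.06). Abat read 12.81 and 12.74 with WIN 18,446, against 13.49 and 13.31 with vehicle (difference -0.62, adjusted p = 0.0275), or 0.651 of the vehicle level. Its other probe set differed by -0.46 and was not called (adjusted p = 0.312), and Gad1 and Gad2, which make GABA, had no tested probe set. In the fatty aldehyde and sphingosine list around Aldh3a2, the sphingosine kinase Sphk2 fell to 9.48 and 9.52 with WIN 18,446, against 10.45 and 10.44 with vehicle (difference -0.95, adjusted p = 0.0242), while its other probe set differed by -0.56 (adjusted p = 0.13). The other 7 of 8 tested genes were not called (median -0.04). Sgpl1, the lyase that produces the fatty aldehyde Aldh3a2 oxidises, differed by -0.09 (adjusted p = 0.682). In the list of alcohol dehydrogenases, aldehyde reductases and oxidases, Akr1b8, a reductase of the aldose reductase family, fell. It read 13.24 and 13.20 with WIN 18,446, against 13.78 and 13.65 with vehicle (difference -0.49, adjusted p = 0.0289). On this list 7 of 8 tested genes were not called (median -0.05), among them Adh1 (-0.20), Adh5 (0.13) and Cat (0.0083). The dimmer probe set of Cat, 1416430_at, read 10.76 and 10.68 with WIN 18,446, against 10.96 and 11.03 with vehicle. Its groups were separate, with a difference of -0.28 that was not called (limma adjusted p = 0.206).

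The other neighbouring lists held few calls. In the list of branched-chain amino acid and propionate breakdown, which surrounds Aldh6a1, 0 of 18 tested genes were called, with 13 differences below 0 and a median of -0.15. The smallest p-values there belonged to Dbt, a subunit of the branched-chain keto acid dehydrogenase (-0.28, adjusted p = 0.208), and Bcat1, the cytosolic transaminase (0.56, adjusted p = 0.227), which differed by 0.28 without vehicle array 1 and 0.84 without vehicle array 2. In the lysine and choline list around Aldh7a1, 0 of 9 were called and the median was -0.17. Chdh, the choline dehydrogenase that makes betaine aldehyde, read 10.67 and 10.47 with WIN 18,446, against 11.37 and 11.09 with vehicle (difference -0.66, adjusted p = 0.0729), and Etfb, a subunit of the electron transfer flavoprotein, differed by -0.19 (adjusted p = 0.361), with -0.055 without WIN 18,446 array 1 and -0.32 without WIN 18,446 array 2. In the proline list around Aldh4a1, Aldh18a1 rose and 3 of 4 were not called (median -0.08). In the list of carnitine, polyamines and amine oxidases around Aldh9a1, 0 of 9 were called (median -0.08). The smallest p-values were those of Odc1, the first enzyme of polyamine synthesis (0.43, adjusted p = 0.0575), and Aoc3, an amine oxidase (-0.43, adjusted p = 0.129).

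**Figure D3:**
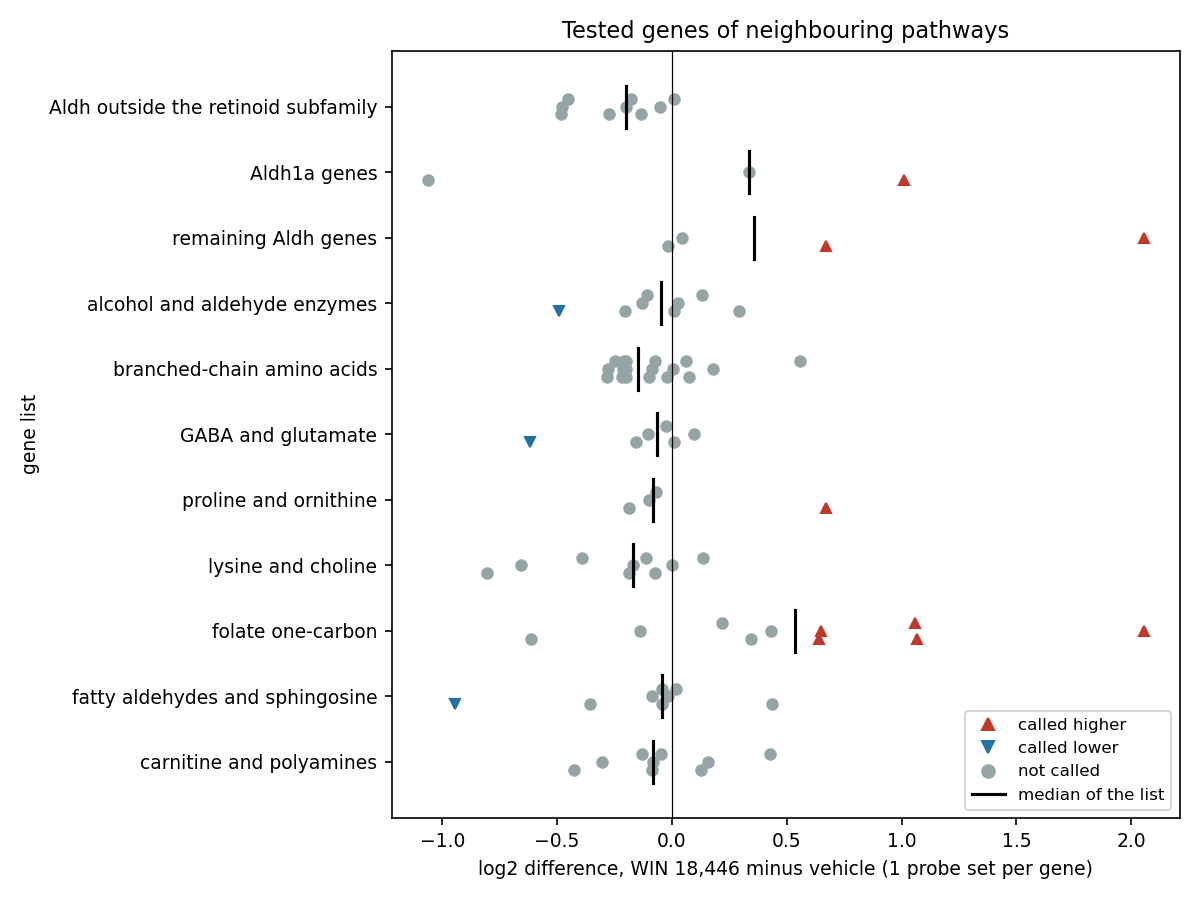
Each point is a tested gene's log2 difference, WIN 18,446 minus vehicle, by gene list, with upward triangles for genes called higher, downward triangles for genes called lower, grey circles for genes not called and a bar for the median of the list. The 9 tested aldehyde dehydrogenases outside the retinoid subfamily (top line) sit between -0.48 and 0.0080 with no call, while 5 folate genes are called higher.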

How the data were processed

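The 4 arrays, 2 with WIN 18,446 and 2 with vehicle, were grouped by the labels. The deposited table holds log2 levels that the authors had normalized, with 1 column for each array. RMA and GCRMA are named, with no version, in the submitters' processing notes, which do not say which of them made the table. That the scale is log2 was read from the values.

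Probe sets were named through GEO's array annotation, and genes are named only from those with 1 symbol; all 10 member symbols matched RefSeq by gene ID. The 64 control probe sets were left out. The 20895 probe sets (46.4%) that averaged 5 or more were tested with limma 3.58.1 in R 4.3.3 (lmFit, eBayes with a variance trend, 2 residual and 3.19 prior degrees of freedom), two-sided, adjusted by Benjamini-Hochberg over all of them. Probe sets at or below 2.22, the highest of 27 bacterial control probe sets, were taken as background. No exact permutation test is given, since its smallest two-sided p with 2 arrays a group is 0.333. Simulated arrays with known changes were used to check the fit.

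All members and their probe sets are named. Some genes of the neighbouring lists were not analysed here. Of each neighbouring list, up to 6 called genes are named by smallest p, or 2 where none was called. The other list genes named (Mtfmt, Gart, Gad1, Gad2, Sgpl1, Adh1, Adh5, Cat, Prodh, Dlst and Suclg1), and the alternatives run on the lists, were picked with their values in view. The members, lists and tests were chosen with earlier results of these data known. The alternatives were other level filters, normalizations and variance models, each array left out in turn, a block for the replicate number, 1 probe set per gene and an adjusted p under 0.10.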

Additional observations from a re-analysis of the deposited data

How the results depend on the processing

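Over the 14 alternatives 0 or 1 member probe set was called, and where 1 was called it was Aldh3a2. It was called with a mean of at least 7 (1), with values quantile normalized again (1), with array medians set equal (1), with 1 probe set per gene (1) and at an adjusted p under 0.10 (1), and not with no filter, no variance trend, robust moderation, the filter on 2 of 4 arrays or any array left out. With the replicate number as a block 1 member was called (Aldh3a2, adjusted p = 0.0214) and 1467 probe sets in all against 1083. The deviations of same-numbered arrays had a correlation of 0.014, so the numbers are not shown to pair the samples. The median over the member probe sets was -0.0913 without the filter, where 5 probe sets at background join, -0.152 after quantile normalization and -0.217 with equal medians, and -0.114 to -0.296 with each array left out. Signs turned for Aldh5a1 without WIN 18,446 array 1 (0.00482; lowest -0.11 with any array left out), for 1436689_a_at of Aldh9a1 with equal medians (-0.0306), without vehicle array 2 (-0.0815) and without WIN 18,446 array 1 (-0.128; highest 0.144), and for 1437398_a_at of Aldh9a1 without vehicle array 1 (-0.0087) and WIN 18,446 array 1 (-0.0318; highest 0.182); the cause was not tested. In the neighbouring lists 10 genes were called, against 0 without the filter, 4 without a variance trend, 16 at an adjusted p under 0.10 and 0 to 14 with each array left out. Each fit with an array left out leaves 1 array in that group, so a call missing there says nothing on a single gene. Aldh1a7 and Aldh18a1 differed by 1.09 and 0.707 without vehicle array 1 and by 0.932 and 0.636 without vehicle array 2. Their groups did not overlap, so these signs could not turn. Over all probe sets limma called 3 without the filter, 372 without a variance trend and 2216 at an adjusted p under 0.10. The lone array of a group was assumed to vary like the other group.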

Other observations

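Prodh, the first enzyme of proline breakdown ahead of Aldh4a1, read 4.97 and 5.50 with WIN 18,446, against 4.20 and 3.96 with vehicle (1417629_at). It lay under the level filter in the mean over the 4 arrays and was not tested.

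Dlst, the succinyltransferase subunit of the oxoglutarate dehydrogenase complex on the lysine list, read 11.26 on WIN 18,446 array 1, against 12.74 on WIN 18,446 array 2 and 12.80 and 12.81 on the vehicle arrays (1423710_at). Suclg1, a succinate-CoA ligase subunit on the GABA list, read 12.16 on the same array, against 12.88 on WIN 18,446 array 2 and 12.72 and 12.63 on the vehicle arrays. Neither was called (limma adjusted p = 0.395 and 0.755). A dimmer probe set of Dlst, 1437775_at, read 7.13 and 6.97 with WIN 18,446, against 6.87 and 7.76 with vehicle, and was not called.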
